A study of Mus musculus with 4 samples.

Results

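The 10 genes described here are Pink1, Usp30, Optn, Tax1bp1, Sqstm1, Tbk1, Bnip3, Bnip3l, Fundc1 and Phb2, which encode mitophagy receptors and parts of the PINK1 pathway. They were chosen by name, and all 10 were found among the 49997 genes of the count tables. Their levels were read in 4 poly(A) RNA libraries made from C57BL/6J mouse embryos, from cultured explants of the AGM (the aorta-gonad-mesonephros region), the embryonic site where blood stem cells arise. The libraries fall into 2 groups of 2. The untreated explants and the CCCP explants were both cultured for 48 hours on membrane filters in medium with hydrocortisone, and the CCCP group received 5 µM CCCP, which carries protons across the inner mitochondrial membrane and so dissipates its potential. Whether the untreated explants received a vehicle is not given in the sources used here. The growth protocol names embryos of stages E10.5 and E11.5, whereas the series design names E10.5 alone. The cell type is labelled as embryonic stem cells of the blood, while the extraction protocol speaks of whole explants.

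Mitophagy is the removal of damaged or surplus mitochondria by autophagy. When the membrane potential is lost, the kinase PINK1 is no longer imported and degraded, builds up on the outer membrane, and phosphorylates ubiquitin. Adaptor proteins then link the ubiquitin-coated mitochondrion to the autophagosome, whereas a separate set of receptors sits in the mitochondrial membrane and binds the autophagosome directly. Most of this control acts on proteins, so RNA levels report only on the supply of the parts.

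The promoter windows of 3 genes are shown first, because Bnip3 and Sqstm1 had the smallest p-values of the 10 genes in each direction and Pink1 gives the pathway its name. Each window covers 250 bases before and 50 bases after the annotated start, from RefSeq on GRCm38.p6, written in the direction of transcription. Of the 10 genes, 9 had such a window, and Tax1bp1 had more than 1, which gave 10 windows. Bnip3l had none. The Bnip3 window is chr7:138909457-138909756, the Sqstm1 window chr11:50210771-50211070 and the Pink1 window chr4:138326247-138326546, all on the minus strand. Capitals mark matches to any of 4 motifs searched on both strands, which are the core of the hypoxia element (ACGTG or GCGTG), the E-box of the lysosomal CLEAR element (CACGTG), the antioxidant element core (TGACNNNGC) and the amino acid response element core (TGATGNAAN). The E-box contains the hypoxia core on each strand, so its matches overlap.
Bnip3: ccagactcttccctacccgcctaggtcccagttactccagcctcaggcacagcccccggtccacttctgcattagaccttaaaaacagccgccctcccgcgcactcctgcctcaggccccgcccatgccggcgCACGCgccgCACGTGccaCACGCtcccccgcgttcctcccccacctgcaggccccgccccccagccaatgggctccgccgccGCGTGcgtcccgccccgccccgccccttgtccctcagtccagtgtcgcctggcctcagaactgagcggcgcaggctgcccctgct
Sqstm1: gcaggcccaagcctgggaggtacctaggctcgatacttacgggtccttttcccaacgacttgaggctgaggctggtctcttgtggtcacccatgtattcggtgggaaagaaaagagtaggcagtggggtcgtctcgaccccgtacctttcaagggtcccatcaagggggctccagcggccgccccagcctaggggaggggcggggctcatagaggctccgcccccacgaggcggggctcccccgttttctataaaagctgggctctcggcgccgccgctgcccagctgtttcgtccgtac
Pink1: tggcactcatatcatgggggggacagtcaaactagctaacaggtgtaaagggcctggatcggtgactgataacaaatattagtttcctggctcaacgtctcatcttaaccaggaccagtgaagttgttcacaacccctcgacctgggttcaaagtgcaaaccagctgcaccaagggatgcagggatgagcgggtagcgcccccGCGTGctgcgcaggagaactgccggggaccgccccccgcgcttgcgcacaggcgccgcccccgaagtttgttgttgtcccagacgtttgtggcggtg

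The Bnip3 window held 5 matches to the hypoxia core, with first bases from position -117 to -35 (the annotated start being 0), and a pair of these matches were the opposite strands of 1 E-box. The Tbk1 window also held 5 matches, and those of Optn and of Tax1bp1 (1 of its windows) held 3 each. The Pink1 window held 1 match to the hypoxia core, at position -47, and in the Sqstm1 window none of the 4 motifs matched. At least 1 hypoxia core was present in 43.8% of all 32851 promoter windows of the same length, at least 3 matches in 8.93% and at least 5 in 1.66% of them. Among the 10 windows of the mitophagy genes, 7 held a hypoxia core. The GC content of these 10 windows ran from 52.7% (Optn) to 71.7% (Bnip3), with Tbk1 at 69.0%. Over all windows the median GC content was 52.7%, and shares among windows of like GC content were not computed. The E-box was present in 2 of them, those of Bnip3 and Tbk1, against 7.15% of all windows. The antioxidant core was present in 1, a window of Tax1bp1, against 12.4%, and the amino acid response core in 0, against 3.95%. A match is a stretch of letters and not a measured binding site.

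The libraries held between 37360968 and 48827826 counted reads. All 10 genes passed the filter on low counts, with between 317 (Optn, untreated replicate 2) and 10892 (Sqstm1, CCCP replicate 1) reads per gene and library. Markers fixed for other cell types showed a mixed tissue. The level of 10 blood stem and progenitor markers, summed in CPM (counts scaled to library size), was 163 and 173 untreated and 128 and 144 with CCCP. That of 7 mesenchymal markers was 2507 to 4028 CPM over the 4 libraries. The 11 hepatic markers were lower in both CCCP libraries than in both untreated libraries for 11 of 11 genes (24.8% of all genes tested), with a summed level of 1737 and 996 CPM untreated and 50.9 and 107 CPM with CCCP, and Fga and Ahsg at 0 in at least 1 library. In bulk RNA, fewer cells of a type and less RNA per cell cannot be told apart, and the part of cell composition in the values below was not tested.

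No mitophagy gene passed the test between the groups. At an adjusted p-value under 0.05 in edgeR's quasi-likelihood test, 0 of the 10 genes were called, and 0% of the 19837 genes tested were called. The smallest edgeR adjusted p of any gene was 0.12. Even the 11 hepatic markers, with a median log2 fold change of -4.77 (CCCP over untreated), were not called. The lack of a call therefore does not show that a gene was unchanged. At an unadjusted p under 0.05, Sqstm1 was higher (5.45% of all genes tested) and Bnip3 was lower (9.16% of all genes tested), 1 gene in each direction. Together these were 2 of 10 genes, near the 14.6% of all genes tested that did so in either direction. DESeq2 also called 0 of the 10 (2.99% of all genes). Without the filter on low counts edgeR called 1 of the 10, Bnip3 (3.43% of all genes). The calls also moved with a replicate block, as given in the closing section. Without overlap between the groups, 5 genes lay above in both CCCP libraries (Pink1, Usp30, Optn, Sqstm1 and Phb2), against 24.0% of all genes. A further 3 lay below (Tax1bp1, Tbk1 and Bnip3), against 24.8%, and in Bnip3l and Fundc1 the groups overlapped. In all, 8 of 10 did not overlap, against 48.8% of all genes. Differences below are log2 fold changes of CCCP over untreated, ± 1 standard error of the fit. The median log2 fold change was 0.10 over the 10 genes and -0.01 over all genes tested, and the 10 genes ranged from -0.55 to 0.38. The summed level of the 10 genes was 870 and 987 CPM untreated and 962 and 968 CPM with CCCP, so the CCCP sums lay within the untreated range.

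**Figure D1:**
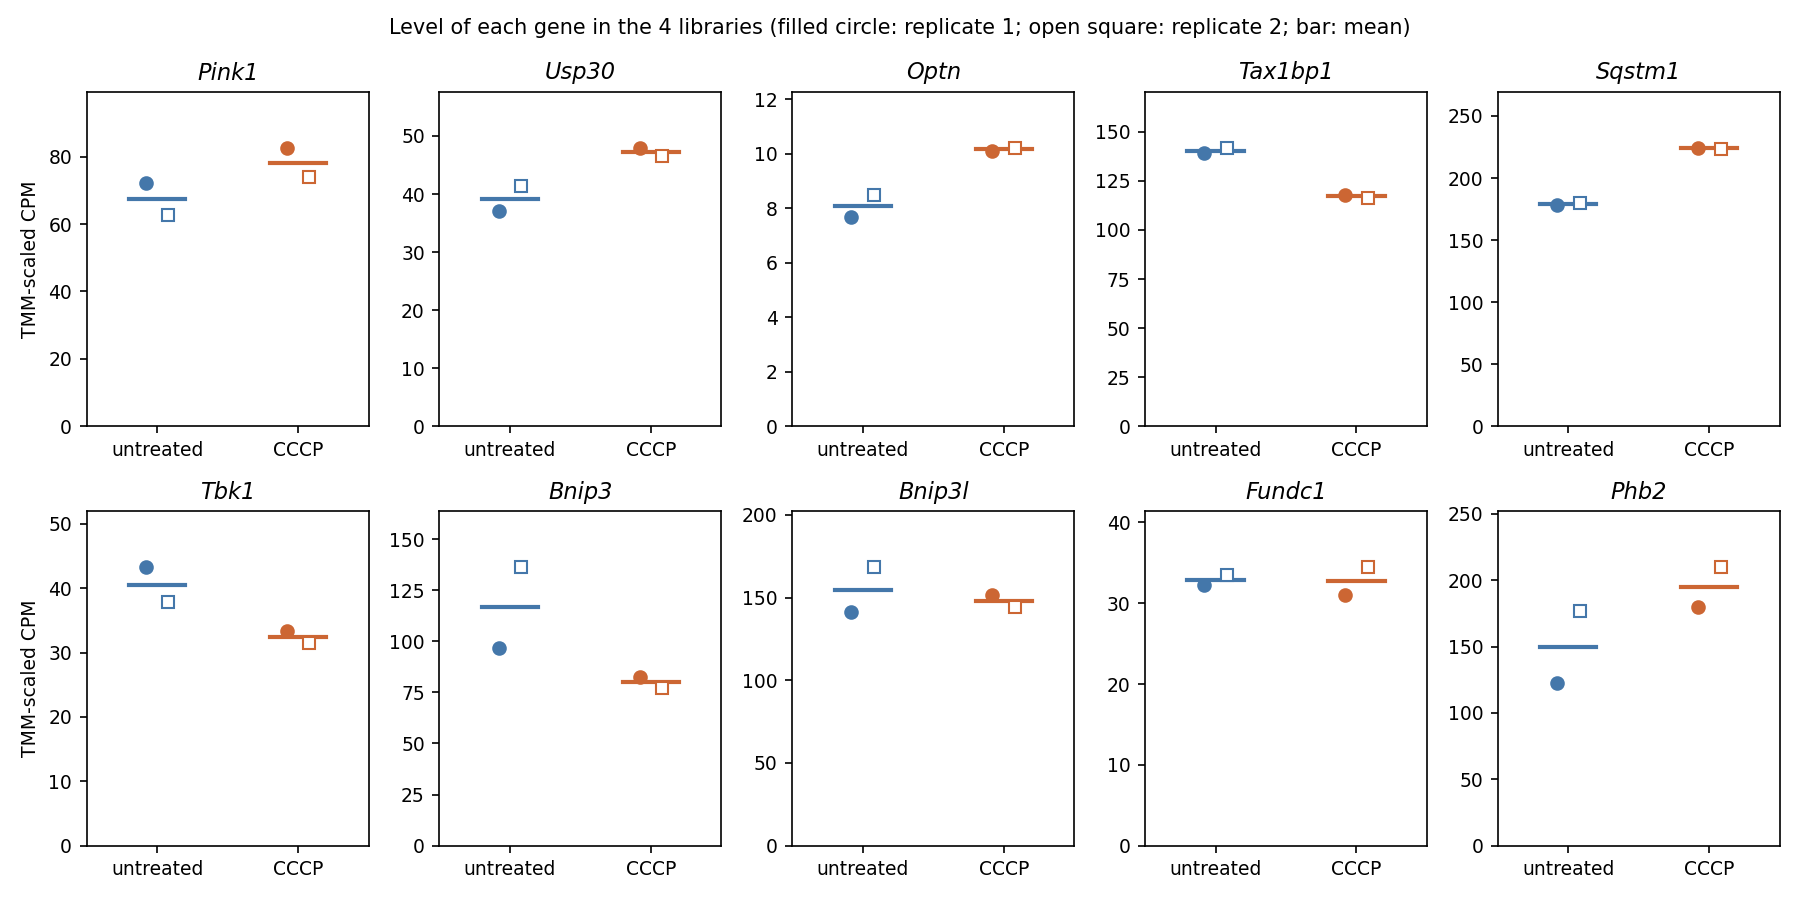
TMM-scaled CPM (vertical axis, from 0, a separate scale per gene) of the 10 genes in the 2 untreated (blue) and 2 CCCP (orange) libraries, with replicate 1 as a filled circle, replicate 2 as an open square and the group mean as a bar. The replicates of Sqstm1 and Tax1bp1 lie close together and apart from the other group, whereas the untreated replicates of Bnip3 (96.9 and 136 CPM) and Phb2 (122 and 177 CPM) lie far apart.

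Pink1 (chromosome 4, 138313409 to 138326296, mm10), the kinase that senses lost membrane potential, had 72.2 and 62.8 CPM in untreated replicates 1 and 2 and 82.6 and 73.9 CPM in the CCCP replicates. The groups did not overlap, but the lower CCCP value exceeded the higher untreated value by only 0.03 on the log2 scale. The difference was 0.21 ± 0.130 (edgeR adjusted p 0.48). Leaving out untreated replicate 2 or CCCP replicate 1 gave 0.14 and 0.13, and leaving out untreated replicate 1 gave 0.33.

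Usp30 (chromosome 5, 114100299 to 114123510) encodes a deubiquitinase of the outer membrane that opposes mitophagy. It had 37.1 and 41.3 CPM untreated and 48.0 and 46.5 CPM with CCCP, so both CCCP libraries were higher. They differed by 0.27 ± 0.122 on the log2 scale (edgeR adjusted p 0.37). The per-kilobase ratio of Pink1 to its opponent Usp30 was 2.93 and 2.29 untreated and 2.59 and 2.39 with CCCP, and the CCCP values lay inside the untreated range.

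As fitted, Sqstm1 and Optn were higher with CCCP and the adaptor Tax1bp1 was lower, but Tax1bp1 stood at 0.08, on the same side as the other two, once a trend on GC content was removed. Sqstm1 (chromosome 11, 50200152 to 50210820) encodes p62, which clusters ubiquitin-coated cargo and is itself consumed by autophagy. It had 178 and 180 CPM untreated and 224 and 224 CPM with CCCP, the tightest replicates among the genes that were higher. Its mean was 179 ± 0.964 CPM untreated and 224 ± 0.442 CPM with CCCP (SD, n = 2), which is 1.25-fold higher. Its difference of 0.32 ± 0.110 had an unadjusted edgeR p of 0.0253 and an adjusted p of 0.29. Whichever library was left out, the value stayed between 0.32 and 0.35. Of its 50-base stretches, 15.5% also occur, on either strand, in transcripts of Mrnip. In the annotation used for counting, 0 exon bases of Sqstm1 were shared with other genes. Strand was not used, so reads from those stretches may belong to either gene.

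Tax1bp1 (chromosome 6, 52713692 to 52766780), an adaptor that also takes part in the clearance of protein aggregates, had 139 and 142 CPM untreated and 118 and 116 CPM with CCCP. Its replicates also lay close together, and both CCCP libraries were lower. On the log2 scale the difference was -0.26 ± 0.108, with an unadjusted p of 0.0505 and an edgeR adjusted p of 0.34. The per-kilobase ratio of Sqstm1 to Tax1bp1 was 2.39 and 2.36 untreated and 3.55 and 3.59 with CCCP. These ratios, which carry no GC correction, were thus further apart between the groups than within them. With the GC trend removed, the log2 fold changes of the 2 genes were nearer, at 0.20 for Sqstm1 and 0.08 for Tax1bp1.

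Optn (chromosome 2, 5020521 to 5064399) encodes optineurin, which with NDP52 (Calcoco2) is a main adaptor of PINK1-driven mitophagy in other cells. It had 7.69 and 8.48 CPM untreated and 10.1 and 10.2 CPM with CCCP. Both CCCP libraries were higher, by 0.33 ± 0.198 on the log2 scale (edgeR adjusted p 0.47). Calcoco2 had 0 reads in all 4 libraries. With the floor set at 3 reads, this left its level under about 0.0614 to 0.0803 CPM per library, scaled by total counts without the TMM factors. The ratio of Sqstm1 to Optn per kilobase was 36.6 and 33.4 untreated and 35.0 and 34.5 with CCCP, and the CCCP values lay inside the untreated range.

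Tbk1 (chromosome 10, 121546455 to 121586794) encodes the kinase that phosphorylates optineurin and p62 and strengthens their hold on ubiquitin. It had 43.3 and 37.8 CPM untreated and 33.4 and 31.5 CPM with CCCP. Both CCCP libraries were lower, while the adaptors Optn and Sqstm1 were higher in both. A difference of -0.32 ± 0.134 resulted, with an unadjusted p of 0.051 and an edgeR adjusted p of 0.34. Without untreated replicate 1 it was -0.21.

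Among the receptors of the outer membrane, Bnip3 differed most as fitted and its close relative Bnip3l little, whereas with the GC trend removed Fundc1 (0.36) differed more than Bnip3 (-0.29). Bnip3 and Bnip3l both encode BH3-type proteins that bind the ATG8 family without ubiquitin, and both are known as hypoxia-induced genes. Bnip3 (chromosome 7, 138890836 to 138909506) had 96.9 and 136 CPM untreated and 82.6 and 77.1 CPM with CCCP. The CCCP mean was 79.8 ± 3.84 CPM against 117 ± 27.9 CPM untreated (SD, n = 2), which is 0.685-fold. Its difference of -0.55 ± 0.179 had an unadjusted edgeR p of 0.0222 and an adjusted p of 0.28. The size of the difference rested on untreated replicate 2, the highest library, without which it was -0.26, against -0.76 without untreated replicate 1. Of the 50-base stretches of Bnip3 transcripts, 47.2% also occur in transcripts annotated to other genes, among them AC160336.1 and Gm45507. In the annotation used for counting, 0 exon bases of Bnip3 were shared with other genes. Reads that mapped to several places were not counted and strand was not used, so the level of Bnip3 is uncertain.

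Bnip3l (chromosome 14, 66985238 to 67008877), also called NIX, clears mitochondria from maturing red blood cells. It had 141 and 168 CPM untreated and 151 and 144 CPM with CCCP, and both CCCP values lay inside the untreated range. The difference was -0.07 ± 0.132 (edgeR adjusted p 0.84). The summed level of 13 erythroid markers was 2397 and 2974 CPM untreated and 2658 and 4472 CPM with CCCP. Whether the share of erythroid cells bears on the level of Bnip3l was not tested. The per-kilobase ratio of Bnip3 to Bnip3l was 1.45 and 1.70 untreated and 1.15 and 1.12 with CCCP, without overlap. In Bnip3l, 20.8% of the 50-base stretches also occur in the pseudogene Bnip3l-ps.

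Fundc1 (chromosome X, 17519967 to 17572329) encodes another receptor of the outer membrane that is controlled by phosphorylation. It had 32.3 and 33.5 CPM untreated and 31.0 and 34.5 CPM with CCCP. The groups overlapped fully, with a difference of -0.0046 ± 0.130 (edgeR adjusted p 0.99). Phb2 (chromosome 6, 124712289 to 124716945) encodes prohibitin 2, a scaffold of the inner membrane that is exposed as a receptor once the outer membrane ruptures. It had 122 and 177 CPM untreated and 180 and 210 CPM with CCCP. The lower CCCP library lay just above the higher untreated one, by 0.03 on the log2 scale. The difference was 0.38 ± 0.197 (edgeR adjusted p 0.41). Leaving out untreated replicate 1 gave 0.15, and leaving out untreated replicate 2 gave 0.69.

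**Figure D2:**
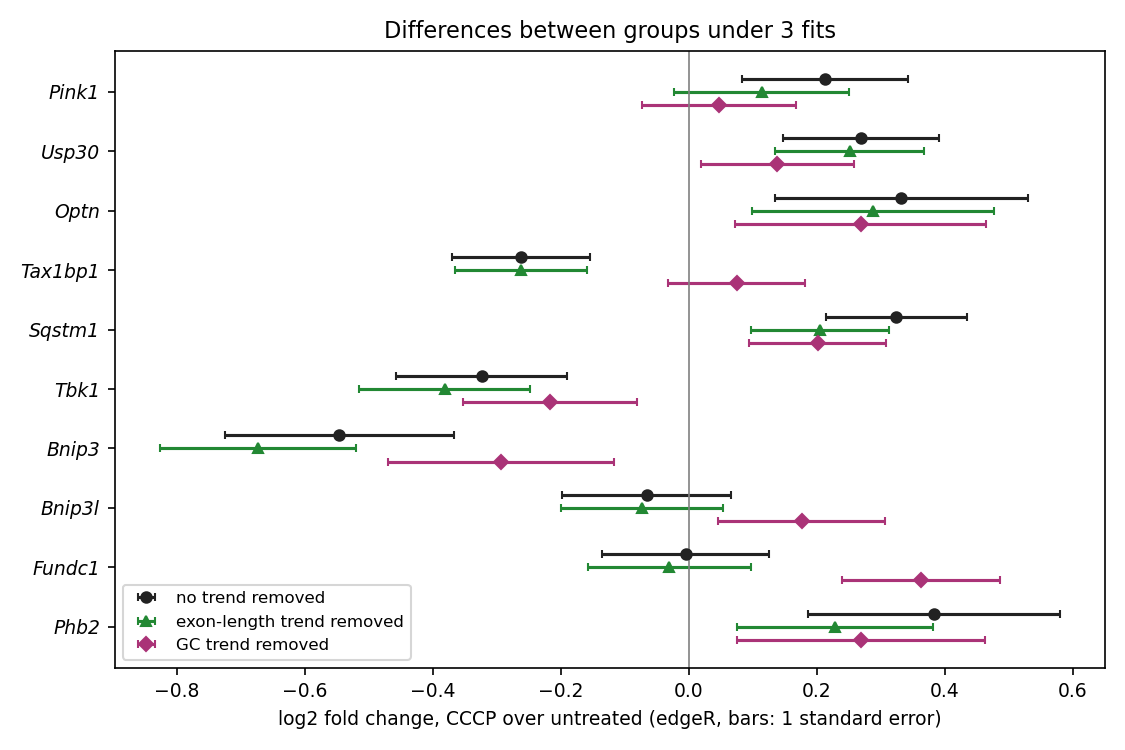
Log2 fold change of CCCP over untreated (horizontal axis) for the 10 genes from edgeR, with bars of 1 standard error, as fitted and with a trend on exon length or on GC content removed. Bnip3 and Tbk1 lie below 0 and Optn, Sqstm1, Usp30, Phb2 and Pink1 above 0 in all 3 fits, whereas Tax1bp1, Bnip3l and Fundc1 move to the right of 0 once the GC trend is removed.

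The sign of the log2 fold change of the 10 genes divided along the base composition of their transcripts. The 5 genes that were higher with CCCP had a GC content of 50.7% (Optn) to 59.0% (Pink1), and the 5 with a log2 fold change below 0 had 38.8% (Fundc1) to 45.4% (Tbk1). Among the latter, Bnip3l (-0.07 ± 0.132) and Fundc1 (-0.0046 ± 0.130) had overlapping groups, so their direction was not resolved. Over all genes tested, log2 fold changes went with GC content (Spearman's rho 0.374 across genes, which are not independent replicates). With this trend removed in edgeR, an alternative chosen after seeing the data, the log2 fold change was 0.05 for Pink1, 0.14 for Usp30, 0.20 for Sqstm1 and 0.27 for both Optn and Phb2. It was -0.29 for Bnip3 and -0.22 for Tbk1, and it was 0.08 for Tax1bp1, 0.18 for Bnip3l and 0.36 for Fundc1, which had all been below 0. In that fit 0 of the 10 genes were called. With the exon-length trend removed instead, all 10 kept their sign, and Bnip3 stood at -0.67 and Pink1 at 0.11.

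Levels of different genes were compared per kilobase of exon. Phb2 had the highest level (110 CPM per kilobase untreated, 143 with CCCP), followed by Sqstm1 (88.2 and 110), Bnip3 (66.4 and 45.5) and Bnip3l (41.9 and 40.0). Tax1bp1 (37.1 and 30.9) and Pink1 (28.5 and 33.1) came next and exchanged places between the groups, as did Tbk1 (13.4 and 10.7) and Usp30 (11.0 and 13.3). Fundc1 (9.50 and 9.47) and Optn (2.52 and 3.18) were lowest. In the untreated libraries the ranges of Phb2 (90.0 to 130) and Sqstm1 (87.8 to 88.5) nearly touched, as did those of Bnip3l (38.2 to 45.6) and Tax1bp1 (36.7 to 37.5), and those of Usp30 (10.4 to 11.6) and Tbk1 (12.5 to 14.3) lay close. In the CCCP libraries the ranges of Pink1 (31.2 to 34.9) and Tax1bp1 (30.7 to 31.1) were as near, and those of Tbk1 (10.4 to 11.0) and Fundc1 (8.98 to 9.97) lay close, so these neighbours were hardly separated beyond their spread. Optn was lowest in every library.

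**Figure D3:**
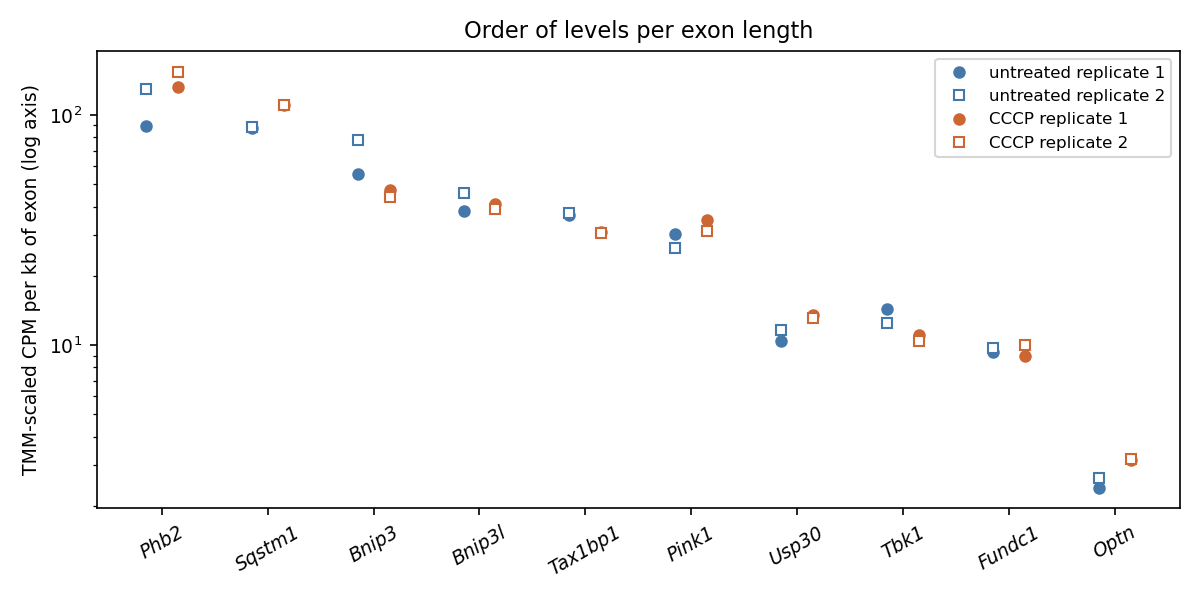
Level per kilobase of exon (vertical log axis) of the 10 genes in each library, ordered by the mean over the groups, with untreated libraries in blue and CCCP libraries in orange. The 10 genes span from Optn (2.52 CPM per kilobase untreated) to Phb2 (110).

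The other genes of the pathway, from lists fixed by role, were also not called, with 0 adjusted p-values under 0.05 in edgeR in each of the 8 lists. Among 13 genes of PINK1 signalling, 10 had a log2 fold change above 0 with a median of 0.19, and 7 lay above and 1 below without overlap, against 24.0% and 24.8% of all genes tested. Park7, which encodes the redox protein DJ-1, had 88.2 and 112 CPM untreated and 129 and 142 CPM with CCCP (log2 fold change 0.44, edgeR adjusted p 0.30), and Fbxo7, an F-box protein, 14.8 and 15.3 against 19.4 and 19.5 CPM (0.37, adjusted p 0.35). Usp15, a deubiquitinase that opposes mitophagy, went the other way, with 75.4 and 74.3 CPM untreated and 48.6 and 56.1 CPM with CCCP (-0.52, adjusted p 0.21). Usp35 had -0.26 (adjusted p 0.60) and overlapping groups. Usp30 and Usp15, which are both known to counter mitophagy, thus lay on opposite sides.

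The ATG8 family, to which all the receptors and adaptors above bind, lay above in both CCCP libraries for 5 of 5 genes, against 24.0% of all genes tested, with a median log2 fold change of 0.34. Exon lengths of these 5 genes ran from 980 to 2560 bases. Over all genes tested, log2 fold changes went with exon length too (Spearman's rho -0.350). The pathway lists were not read with the length or the GC trend removed. Gabarap had 182 and 212 CPM untreated and 254 and 271 CPM with CCCP (0.41), and Map1lc3b 101 and 103 against 129 and 131 CPM (0.34), both with an edgeR adjusted p of 0.27. Of the 12 further receptors and their controls, 5 lay above and 2 below (24.0% and 24.8% of all genes), with a median of 0.12. Fkbp8, an outer membrane receptor, had 120 and 130 CPM untreated and 166 and 169 CPM with CCCP (0.42, adjusted p 0.23). Phb, the partner with which Phb2 forms its ring, had 73.9 and 96.3 against 114 and 121 CPM (0.47, adjusted p 0.28). Fbxl4 and Pptc7, which hold down the levels of the BNIP3 and NIX proteins, had -0.22 and -0.11 (adjusted p 0.61 and 0.79).

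In the further lists the genes were split, and the counts below stand against 24.0% of all genes above and 24.8% below. Of 5 tested ubiquitin-binding adaptors beside Optn, Tax1bp1 and Sqstm1, 1 lay above and 2 below, with a median of -0.05. Tollip and Calcoco1 had log2 fold changes of 0.29 and 0.14, and Wdfy3 and Ncoa4 -0.40 and -0.12 (edgeR adjusted p from 0.32 to 0.72). The 4 adaptors and relatives of TBK1 all overlapped between the groups, with a median of -0.11, among them Azi2 at -0.12 and Tank at -0.09. Of 10 initiation kinases and scaffolds, 5 lay above and 2 below (24.0% and 24.8% of all genes). Rb1cc1, the scaffold FIP200 of the ULK1 complex, had 84.8 and 78.9 CPM untreated and 56.2 and 53.1 CPM with CCCP (-0.58, adjusted p 0.17), while its partners Atg101 and Atg13 had 0.36 and 0.33. Ulk2 had -0.07. Of 12 outer membrane proteins that are tagged with ubiquitin in mitophagy, 6 lay above and 1 below (24.0% and 24.8% of all genes), with Tomm40 at 0.39, Vdac3 at 0.38, Mfn1 at -0.16 and Tomm70a at -0.16.

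Of 8 transcription factors that act on mitophagy genes, 3 lay above and 1 below, against 24.0% and 24.8% of all genes. Epas1, which encodes HIF-2 alpha, had 45.8 and 46.8 CPM untreated and 36.6 and 24.0 CPM with CCCP (-0.61, edgeR adjusted p 0.29), and Hif1a had -0.17 with overlapping groups. Atf4 had 0.31 and Tfe3, a regulator of lysosomal genes, 0.19. Among 73 candidates from these lists and the 10 genes, the pattern over the 4 libraries most like that of Pink1 was that of Wipi1, followed by Src and Atg13. Likeness was the Euclidean distance of centred log2 CPM, which was 0.08, 0.11 and 0.12. Among the 10 genes themselves, Optn and Usp30 were nearest to each other, at a distance of 0.08.

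**Figure D4:**
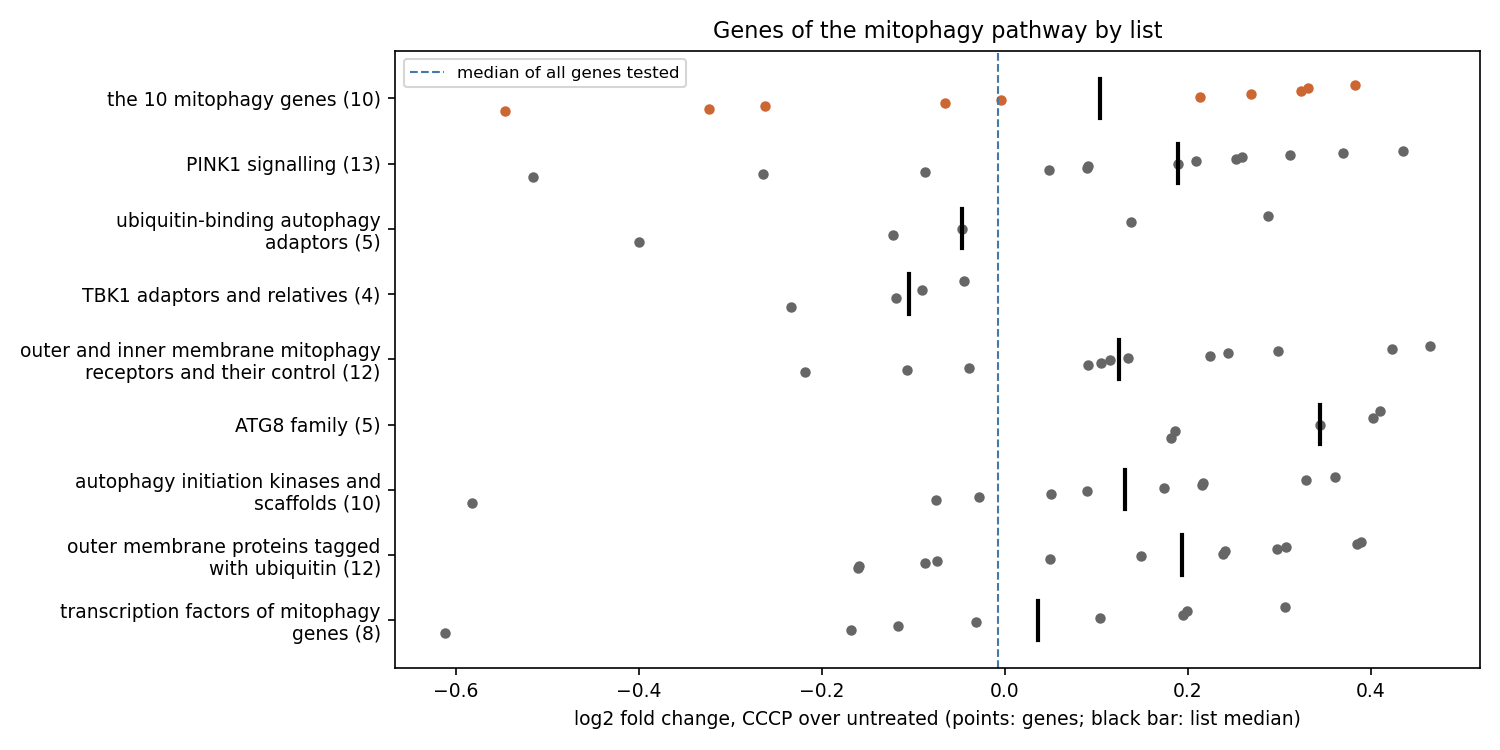
Log2 fold change of CCCP over untreated (horizontal axis) of each tested gene, with 1 row for the 10 genes (orange) and 1 for each of 8 pathway lists (grey), black bars at the medians and a dashed line at the median of all genes (-0.01). The ATG8 family lies wholly to the right of 0, and the TBK1 adaptors lie to its left.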

How the data were processed

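RNA of AGM explants was measured in 2 untreated and 2 CCCP libraries, grouped by sample title. The column header of untreated replicate 1 spells its name UM1, so each file was assigned by its sample record. The authors deposited unnormalized read counts per gene from featureCounts 2.0.3 and the mm10 RefSeq annotation, per the file headers. Per the submitters' processing notes, HISAT2 and SAMtools were used. Per the file headers, no strand option was set, read pairs were not counted as fragments, and reads with several hits or genes were not counted.

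The test was edgeR 4.0.16 (quasi-likelihood, TMM scaling, filterByExpr with minimum count 10 and minimum total 15, group as the sole term) in R 4.3.3 on all 4 libraries, two-sided, with Benjamini-Hochberg adjustment over all 19837 genes and a threshold of 0.05. The test was also run on simulated counts, which had less spread between replicates than these libraries and no deviation shared by same-numbered libraries. That run therefore does not show how often the test finds changes in data like these. CPM is TMM-scaled. A standard error is the log2 fold change over the square root of F. An exact permutation test of 2 against 2 libraries cannot reach the threshold and was not run. DESeq2 1.42.0, other scalings, no filter, a replicate block, trends on exon length and GC content, and leaving out each library were tried as alternatives. GC content and shared 50-base stretches came from GENCODE transcripts of the same build.

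The 10 genes and the lists were chosen with earlier results of these data known. From each pathway list, up to 2 genes per direction with the smallest unadjusted p and a mean CPM of at least 10 were named. A gene named in that rule in any case is not reported here. No label says whether replicates came from separate embryos, so p-values measure the spread between these libraries, which may be technical. Intervals and floors cover counting error only.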

Additional observations from a re-analysis of the deposited data

How the results depend on the processing

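The number of genes called in edgeR was 0 with other library scalings and with the length or the GC trend removed. It was 1107 without the filter on low counts, 594 in DESeq2, and between 1 and 34 when 1 library was left out, where the lone library of its group is assumed to vary like the others. Replicate numbers are shared by the groups, but no label says what they mark. Same-numbered libraries were alike in depth and deviated together (correlation 0.36 across genes), but with 2 pairs the numbers were not taken to pair the libraries. With the replicate block 2118 genes were called. Adding removal of the length trend gave 1242, and of the GC trend (an alternative added once the data were seen) 775. Of the 10 mitophagy genes, 2 were called with the replicate block (10.7% of all genes), Bnip3 at -0.53 and Phb2 at 0.40, with adjusted p-values of 0.0271 and 0.0425. With the block plus removal of the length trend 1 was called (6.26% of all genes), Bnip3 at -0.66, adjusted p 0.0156. Without the filter 1 was called (3.43% of all genes), Bnip3 at -0.53, adjusted p 0.0173. Over all 13 alternatives the adjusted p of Bnip3 ran from 0.0156 to 0.83, and that of Phb2 from 0.0425 to 0.89. Bnip3, Tbk1, Pink1, Optn, Sqstm1, Usp30 and Phb2 kept their sign in 13 of 13 alternatives. Fundc1 changed sign with RLE size factors (0.00075), without the filter (0.0083), in DESeq2 (0.00063), with the GC trend removed (0.36) and with the block added to that (0.36). Tax1bp1 did so with the GC trend removed (0.0752) and with the block as well (0.0748), and Bnip3l likewise (0.18 and 0.18). When 1 library was left out, Fundc1 lay between -0.082 and 0.0695 and Bnip3l between -0.18 and 0.0867. Ordered by CPM without division by exon length, 5 of the 10 genes held the same rank as per kilobase. Optn, with 317 to 491 reads per library, is limited by depth more than the other 9 genes. The causes of these changes were not tested.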
